A study of Mus musculus with 2 samples.

Results

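NF-kB is a family of dimeric transcription factors, and 10 of its genes were followed here in mouse liver cells, namely the 5 subunit genes Nfkb1, Nfkb2, Rel, Rela and Relb, and 5 genes of inhibitors and cofactors, Nfkbia, Nfkbie, Nfkbiz, Bcl3 and Tnfaip3. They were chosen by name, with earlier results of these data known. Every spot that is not a control and carries 1 of these gene names on both arrays was read. The array holds 13 probes for the 10 genes, out of 39390 probes for 30153 genes. Of the 10 genes, 8 have 1 probe, Nfkb1 has 2 and Relb has 3. In 4 of them, Nfkbie, Nfkbiz, Nfkb2 and Rela, Sox9+EpCAM- cells of injured livers had a signal at least 4-fold that of mature hepatocytes (MHs), beside 5.59% of the 23417 genes measured on at least 1 array, and none of the 10 was 4-fold lower, beside 5.57%. With normexp background correction and in the deposited table, Rela fell short of this size and 3 genes were left, and with scaling to the dimmest probe of Gapdh, Nfkb2 did so too and 2 were left, Nfkbie and Nfkbiz.

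The MHs came from healthy livers of Sox9-EGFP mice by collagenase perfusion and Percoll gradient centrifugation. The Sox9+EpCAM- cells, which the study calls biphenotypic hepatocytes, were sorted by FACS as GFP+EpCAM- cells after Sox9-EGFP mice had received a diet with DDC (3,5-diethoxycarbonyl-1,4-dihydro-collidine), a compound that injures bile ducts, so GFP from the Sox9 reporter, and not the Sox9 protein, chose the cells. Each group has 1 array of Cy3-labelled total RNA, no replicate, and no age, number of mice or length of the diet for the array samples in the sources used here. Diet, isolation method and group therefore cannot be told apart, no SD or test between groups can be given, and the precision is limited by the number of arrays.

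Of 43020 spots on each array, the share well above background was 64.0% for MHs and 74.8% for Sox9+EpCAM- cells, none was saturated, and both arrays were on 1 slide. Probes printed at least 8 times had a median SD between spots of 0.085 and 0.083 on the log2 scale. Both samples are labelled male, but both Xist probes were above background in MHs alone, and 5 probes of the Y-linked genes Ddx3y, Eif2s3y, Kdm5d and Uty showed the reverse, with 0 above background in MHs and 4 in Sox9+EpCAM- cells. These genes go against the label of the MH sample and move with the groups, and their part in the values below was not tested. Hepatocyte markers were present on both arrays: all 13 were well above background, with Alb at an intensity of 207000 in MHs and 170000 in Sox9+EpCAM- cells and Hnf4a at 4990 and 6360, log2 differences of -0.87 and -0.23 after scaling, while Cyp3a11, Cyp1a2, Cyp2e1 and Tat, genes of liver enzymes, differed by -8.58, -8.36, -5.47 and -2.46. Epcam, whose protein the sorted cells were gated to lack, had an intensity of 139 in MHs and 2770 in the sorted cells, a log2 difference of 3.73, while Krt7 and Krt19, keratins of cholangiocytes, differed by -0.23 and 0.42.

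In resting cells the dimers are held in the cytoplasm by IkB proteins such as those encoded by Nfkbia and Nfkbie. Signals from receptors of tumour necrosis factor, interleukin 1 and bacterial products activate the IkB kinase complex, the IkB proteins are degraded and the dimers enter the nucleus, where they bind DNA sites named kB. A second branch, the noncanonical pathway, processes the Nfkb2 precursor and releases dimers with RelB. Several inhibitors are themselves target genes, which closes feedback loops, and in the liver the pathway is known for its part in hepatocyte survival and in inflammation.

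The promoters of the genes are shown because this feedback acts through kB sites. RefSeq windows of GRCm38.p6, from 250 bases before to 50 bases after each start, hold 7 of the 10 genes, while Nfkb1, Relb and Nfkbiz were not in the table used. The motif searched was the kB consensus, 10 bases long, on both strands, with overlapping matches taken as 1 site. It lay in the windows of 6 of these 7 genes, and of 9.55% of all 27025 genes in the table. The stretches below run 5′ to 3′ on the strand of the gene, with the matches in capitals.
Nfkb2, chr19:46304678-46304754, plus strand: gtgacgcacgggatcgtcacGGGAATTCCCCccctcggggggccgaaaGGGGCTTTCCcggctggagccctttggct
Rel, chr11:23771031-23771081, minus strand: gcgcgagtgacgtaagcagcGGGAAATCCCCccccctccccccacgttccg
Nfkbia, chr12:55492647-55492696, minus strand: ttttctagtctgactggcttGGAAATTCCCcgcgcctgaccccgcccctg
Nfkbie, chr17:45555574-45555623, plus strand: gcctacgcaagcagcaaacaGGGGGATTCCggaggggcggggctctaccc
Bcl3, chr7:19822738-19822773, minus strand: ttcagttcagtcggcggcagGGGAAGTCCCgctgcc
Tnfaip3, chr10:19015393-19015555, minus strand: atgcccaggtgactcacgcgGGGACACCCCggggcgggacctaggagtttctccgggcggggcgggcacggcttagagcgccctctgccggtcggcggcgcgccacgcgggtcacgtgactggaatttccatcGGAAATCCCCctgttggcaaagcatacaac
In the windows shown, Nfkb2 and Tnfaip3 held 2 separate sites and the other 4 genes held 1, and the site of Bcl3 lay just downstream of the start. For Nfkb2 the window of the most upstream start with a match is shown, and the windows of its starts further downstream held more matches, which are not printed. No match was found in the window of Rela, which says only that these letters are not in that window. A match is a run of letters and not a measured binding site.

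**Figure D1:**
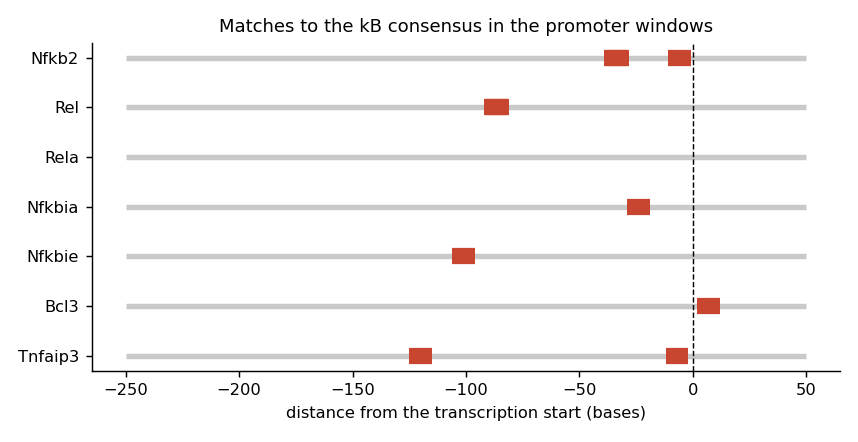
Position of the kB consensus (red blocks, 10 bases each) in the promoter windows of the 7 genes in the table, against distance from the transcription start in bases (dashed line). Where a gene has several starts, the most upstream one with a match is drawn. Nfkb2 and Tnfaip3 show 2 sites, Rela none.

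The signal of each probe is given as the intensity that the scanner software computed after background subtraction, with the error the software attaches to the single spot. Differences are those of log2 intensities, each relative to the 75th percentile of its array (741 for MHs and 1110 for Sox9+EpCAM- cells), as Sox9+EpCAM- minus MH, with the spot errors carried through. These errors cover the measurement of 1 spot and not the variation between mice. Positions of probes are those of the array design on mm9. An annotation of mm9 was not used here, so their exons are not given. The scaling bears on every difference. Scaling to the brightest probe of Gapdh moved the median of all genes by 0.27 and the deposited table moved it by -0.18. The 8 probes of Gapdh did not share a direction: 5, the brighter ones, differed by -0.27 to -0.24, and the 3 dimmest by 0.73 to 0.80. Scaling to the dimmest, chosen after these values were seen, moved the median by -0.76, so differences up to that size have no settled sign. None of the 13 probes shares a run of 20 bases with any probe designed on a different gene.

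Nfkb2 encodes p100, the precursor that noncanonical signals process to the p52 subunit. Its probe, on the plus strand of chromosome 19 within 46386146 to 46386285, had an intensity of 351 ± 35.9 in MHs and 3160 ± 316 in Sox9+EpCAM- cells. Nfkb2 was thus 6.01-fold higher, with a log2 difference of 2.59 ± 0.21. This difference was larger than that of 97.9% of the 19235 genes measured on both arrays. With scaling to the dimmest Gapdh probe it was 1.82, short of 4-fold.

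Rela encodes p65, a subunit with a transactivation domain that forms the best known dimer with p50. Its probe, at 5648070 to 5648129 on the plus strand of chromosome 19, had an intensity of 155 ± 16.6 in MHs and 1020 ± 102 in Sox9+EpCAM- cells. Rela was 4.39-fold higher, with a log2 difference of 2.14 ± 0.21, and 662 genes had a larger one. Of the 4 genes past 4-fold it lay nearest to that size, and its log2 difference was 1.75 with normexp background correction and 1.95 in the deposited table and 1.37 with the dimmest Gapdh probe, all short of 4-fold.

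Nfkb1 encodes p105, the precursor of p50. Its brightest probe, at 135254550 to 135254609 on the minus strand of chromosome 3, had an intensity of 2190 ± 219 in MHs and 4380 ± 438 in Sox9+EpCAM- cells, and the log2 difference was 0.42 ± 0.20, or 1.34-fold, and -0.35 with the dimmest Gapdh probe. The other probe of Nfkb1, at 135247621 to 135247680, was dim, below the background limit on both arrays, with intensities of 6.48 and 8.99, and gives no difference. Nfkb1 and Nfkb2, the pair of precursor genes, thus differed from each other in size of change on these arrays, with 75.7% of measured genes below Nfkb1.

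Rel encodes c-Rel, a subunit best known from lymphocytes. It was dim on both arrays, with 42.8 ± 7.0 in MHs and 72.5 ± 8.12 in Sox9+EpCAM- cells. Its log2 difference of 0.18 was smaller than its spot error of 0.29, and it was below 0 with normexp correction, at -0.23, and with quantile normalization, at -0.03, near 0 in the deposited table, and -0.59 with the dimmest Gapdh probe. The design places this probe on the minus strand of chromosome 11 at 23641729 to 23641743, a span of 15 bases that is shorter than the probe.

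Relb encodes RelB, the partner of p52 in the noncanonical branch. Its 3 probes on the minus strand of chromosome 7 gave differences of unlike size, and the scaling settles the sign of none of them. The brightest, at 20191773 to 20191832, had an intensity of 991 ± 99.2 in MHs and 2230 ± 223 in Sox9+EpCAM- cells, with a log2 difference of 0.59 ± 0.20, or -0.18 with the dimmest Gapdh probe. The second, at 20191722 to 20191781, overlaps it in part and gave 951 ± 95.4 and 1650 ± 165, a difference of 0.21 ± 0.20. The third, at 20203058 to 20203117, was designed on the transcript ENSMUST00000108452 and gave 901 ± 90.4 and 1240 ± 124, a difference of -0.12 ± 0.20. The range over the 3 probes was 0.71, and of 600 genes with 3 probes measured on both arrays 71.0% had a larger range, so the spread of Relb was not unusual for this array.

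**Figure D2:**
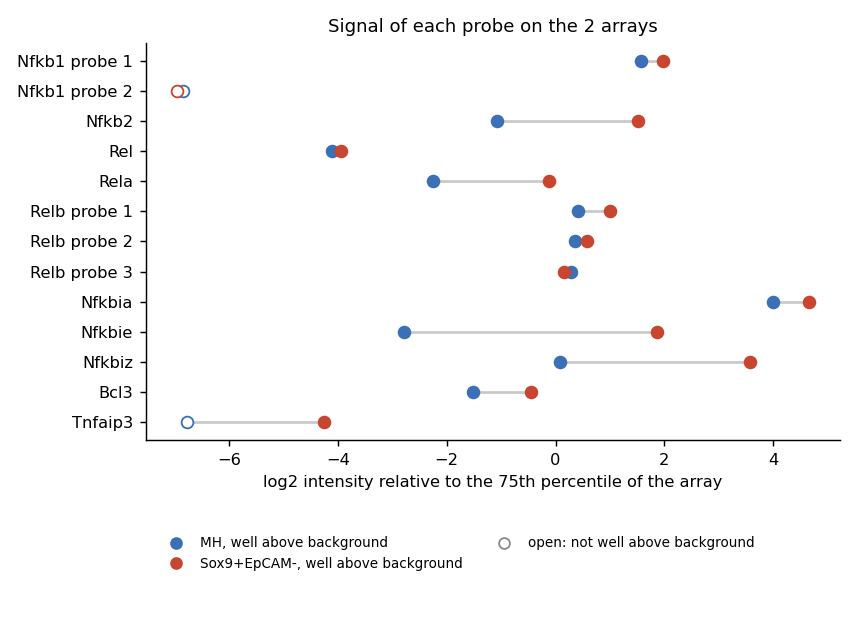
Log2 intensity of each of the 13 probes relative to the 75th percentile of its array, for MHs (blue) and Sox9+EpCAM- cells (red), with open circles for values not well above background. The lines of Nfkbie, Nfkbiz, Nfkb2 and Rela span more than 2 log2 units from MHs to Sox9+EpCAM- cells, while both values of the second Nfkb1 probe and the MH value of Tnfaip3 are open; levels are to be compared within a probe, not between probes.

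Among the inhibitors, Nfkbie encodes IkB epsilon, which holds dimers in the cytoplasm. Its probe, at 45700000 to 45700059 on the plus strand of chromosome 17, had an intensity of 108 ± 12.7 in MHs and 4030 ± 403 in Sox9+EpCAM- cells. Nfkbie was 24.9-fold higher, a log2 difference of 4.64 ± 0.22, the largest of the 10 genes. Only 25 of the 19235 genes measured on both arrays had a larger difference. The difference was 4.11 with normexp correction and 3.88 with the dimmest Gapdh probe.

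Nfkbiz encodes IkB zeta, a nuclear protein that acts on NF-kB dimers at the DNA and takes part in the induction of secondary target genes. Its probe, at 55817859 to 55817918 on the minus strand of chromosome 16, had an intensity of 780 ± 78.3 in MHs and 13300 ± 1330 in Sox9+EpCAM- cells. Nfkbiz was 11.4-fold higher, with a log2 difference of 3.51 ± 0.20, and 147 genes had a larger one. It was 2.75 with the dimmest Gapdh probe.

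Nfkbia encodes IkB alpha, the inhibitor of the fast feedback loop. Its probe, on the minus strand of chromosome 12 within 56590945 to 56591440, was bright on both arrays, with 11900 ± 1190 in MHs and 28000 ± 2800 in Sox9+EpCAM- cells. Its log2 difference was 0.65 ± 0.20, or 1.57-fold, and 82.1% of measured genes had a smaller one. With the dimmest Gapdh probe it was -0.11. Nfkbie and Nfkbia thus stood apart, with 3448 genes above Nfkbia against 25 above Nfkbie. Nfkbib, which encodes IkB beta of the cytoplasm and is in the list of other inhibitors, lay nearer to Nfkbia, with 5990 in MHs and 11600 in Sox9+EpCAM- cells, a difference of 0.37.

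Bcl3 encodes another nuclear IkB protein, a cofactor of p50 and p52 dimers. Its probe, at 20393826 to 20393885 on the minus strand of chromosome 7, had an intensity of 258 ± 26.7 in MHs and 810 ± 81.1 in Sox9+EpCAM- cells. Bcl3 was 2.10-fold higher, with a log2 difference of 1.07 ± 0.21, larger than that of 89.2% of measured genes, and 0.30 with the dimmest Gapdh probe.

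Tnfaip3 encodes A20, a ubiquitin-editing enzyme that shuts off signalling upstream of the IkB kinases. Its probe, at 18720776 to 18720835 on the minus strand of chromosome 10, was not well above background in MHs, with an intensity of 6.74 ± 6.72, and had 57.9 ± 7.25 in Sox9+EpCAM- cells. Since 27.8 was the dimmest signal of any probe well above background in MHs, Tnfaip3 was at least 1.39-fold higher. This is a log2 difference of at least 0.48. The bound fell to 0.25 with quantile normalization and 0.30 in the deposited table. With normexp correction and with the dimmest Gapdh probe it gave no value, so the sign is not settled by the scaling. The unbounded difference of its signals was 2.52, a value that rests on an MH signal about as large as its own spot error.

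**Figure D3:**
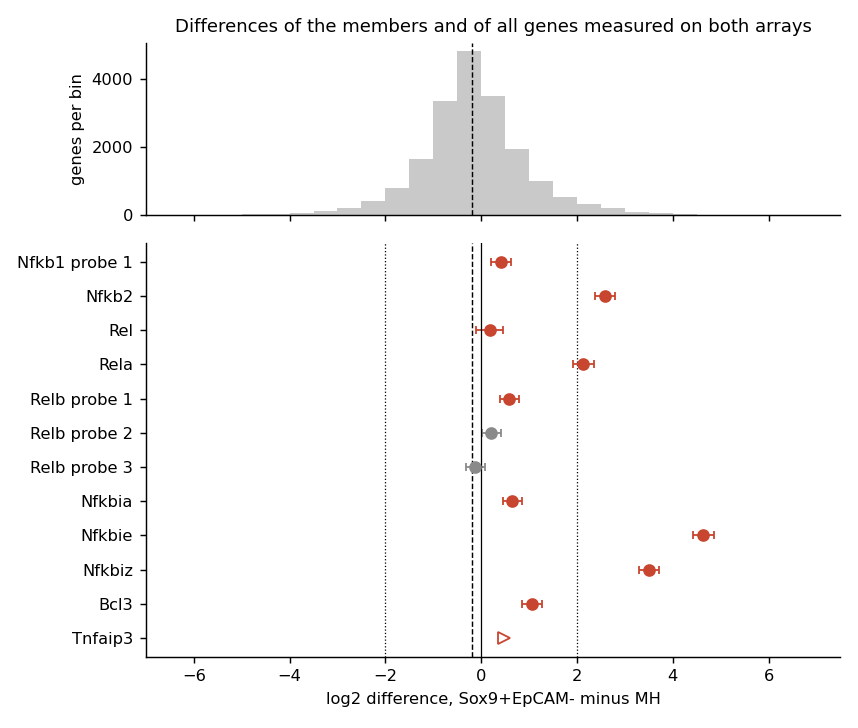
Upper panel, number of the 19235 genes measured on both arrays per bin of log2 difference (Sox9+EpCAM- minus MH), with values beyond the axis in the end bins and the median of -0.19 as a dashed line. Lower panel, difference of each probe with its spot error as a bar (red for the brightest probe of a gene, grey for others, open triangle for the lower bound of Tnfaip3) and dotted lines at 4-fold: Nfkbie, Nfkbiz, Nfkb2 and Rela lie right of the 4-fold line, the remaining probes between the lines.

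Counted over the 10 genes, 4 were higher by 4-fold or more in Sox9+EpCAM- cells, where 5.59% of the 23417 genes measured on at least 1 array were. None was at least 4-fold lower, against 5.57% of all genes. These counts are of genes chosen with earlier results of these data known. At the wider size of 2-fold, 5 were higher, with Bcl3 added to the 4, against 14.2% of all genes, and at 10-fold 2 were higher, Nfkbie and Nfkbiz, against 1.55%. All 10 had a difference above 0, against 41.8% of all genes, where a bound under 1-fold was counted as not above 0. For Rel this was lost with normexp correction, quantile normalization and the deposited table, and for Relb with its dimmest probe. For Nfkb1, Rel, Relb and Nfkbia it was lost with scaling to the dimmest Gapdh probe, which, like normexp correction, gives Tnfaip3 no value. That scaling called 634 of all genes higher and 3005 lower at 4-fold, and the brightest Gapdh probe 1650 and 1006, where the 75th percentile called 1309 and 1304. The median log2 difference was 0.86 over the 10 genes, with Tnfaip3 at its bound, and 1.07 over the 9 measured on both arrays, beside a median of -0.19 over all genes measured on both arrays. By role, 2 of 5 subunits and 2 of 5 inhibitors and cofactors were at least 4-fold higher, with medians of 0.59 and 1.07. The 6 genes with a kB match in their window ranged from 0.18 for Rel to 4.64 for Nfkbie, and Rela, with no match, had 2.14.

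**Figure D4:**
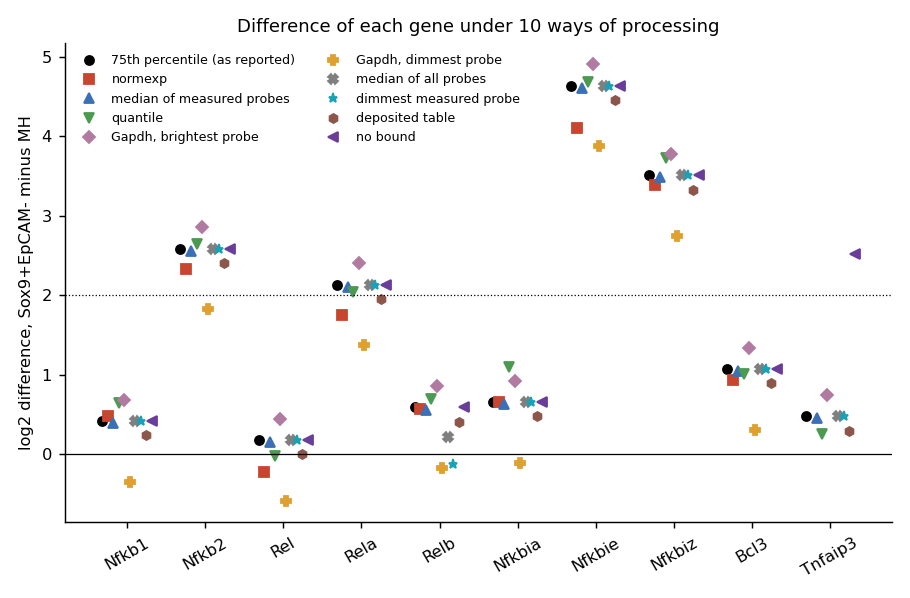
Log2 difference (Sox9+EpCAM- minus MH) of each of the 10 genes under 10 ways of processing the same arrays, with a dotted line at 4-fold. Nfkbie stayed between 3.88 and 4.91 and Nfkbiz between 2.75 and 3.78, Nfkb2 and Rela crossed the 4-fold line, Nfkb1, Rel, Relb and Nfkbia crossed 0, and Tnfaip3, which has no value with normexp or the dimmest Gapdh probe, was at 2.52 without the bound.

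Other genes of the pathway were read by role, from 6 lists. Over these lists, 138 genes other than the 10 were on the array, 123 were well above background on at least 1 array, and of those 17 (13.8%) were at least 4-fold higher and 3 (2.44%) at least 4-fold lower, with a median of 0.25. Over all genes measured on at least 1 array these shares were 5.59% and 5.57%, against which the counts of each list below are to be read. The lists were drawn up with earlier results of these data known.

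Among 13 ligands, Tnf, Il1a, Il33 and Il17a were not well above background on either array. Of the 9 others, none was 4-fold higher and none could be called 4-fold lower, with a median of -0.14, since Tnfsf11 has only a bound. Tnfsf12, which encodes TWEAK, was the brightest of those within 1.5-fold, with 1940 in MHs and 3620 in Sox9+EpCAM- cells, a difference of 0.32. Of the 7 measured on both arrays, Ltb, a ligand of the noncanonical branch, was lowest at -0.96. Tnfsf11, which encodes RANKL, was well above background in MHs alone, with a difference of at most -1.95, and it was 4-fold lower with quantile normalization, with the deposited table, with the dimmest Gapdh probe and without the bound.

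Of 19 receptor genes measured, 3 (15.8%) were at least 4-fold higher and none 4-fold lower, with a median of 0.18. Tnfrsf12a, the receptor of TWEAK, had 3860 in MHs and 52200 in Sox9+EpCAM- cells, 9.03-fold higher. Cd14, a co-receptor for bacterial lipopolysaccharide, had 294 and 5110, 11.6-fold higher. Tlr7, which senses single-stranded RNA, had 41.9 and 889 by its brightest probe, a difference of 3.82. The other 2 probes of Tlr7 did not share this, since 1 was well above background in MHs alone, with a difference of at most -1.52, and 1 on neither array. Tnfrsf1a, the main receptor of tumour necrosis factor, was close to level, with 3040 and 4100, a difference of -0.15. The lowest was Il18r1, a receptor chain of interleukin 18, at -1.89.

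Among 27 adaptors and ubiquitin ligases measured, Ticam1 alone (3.70%) was 4-fold higher and none was 4-fold lower, with a median of 0.23. This count moved with the processing, to 5 with the brightest Gapdh probe, 2 with quantile normalization and 0 with normexp correction. Ticam1 encodes TRIF, an adaptor of toll-like receptors, and had 303 in MHs and 1970 in Sox9+EpCAM- cells, a difference of 2.12 that fell short of 4-fold with normexp correction, in the deposited table and with the dimmest Gapdh probe. Irak2, a kinase of the interleukin 1 receptor complex, was bright and level, with 32400 and 43100, a difference of -0.17. The lowest was Traf3ip2, an adaptor of the interleukin 17 receptor, at -1.44.

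The list of kinases holds 12 genes, among them Ikbkg, Tab1, Tab2 and Tab3, which encode partners of kinases and not kinases. Of the 12, 1 (8.33%) was at least 4-fold higher and 1 at least 4-fold lower, near the share of all genes. Their median was 0.28. Ikbkb, the catalytic subunit of the canonical IkB kinase, had 2500 in MHs and 522 in Sox9+EpCAM- cells, with a log2 difference of -2.84, opposite in sign to Nfkb2, Rela, Nfkbie and Nfkbiz. Tab3, which couples ubiquitin chains to the kinase TAK1, was not well above background in MHs, with 7.12, and had 713 in Sox9+EpCAM- cells, at least 17.1-fold higher. Tab2, its relative, was level, with 5380 and 7760 and a difference of -0.05. The largest difference measured on both arrays was that of Tab1, at 1.72.

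Of 23 other IkB proteins and negative regulators measured, 2 (8.70%) were at least 4-fold higher and none 4-fold lower, with a median of 0.35. Zc3h12a encodes regnase-1, which degrades inflammatory messages, and was at least 9.75-fold higher, from 30.2, not well above background in MHs, to 441. Tnip2, which encodes a partner of A20, had 39.6 and 294, a difference of 2.31, and its other probe, above background in Sox9+EpCAM- cells alone, has no usable value. Both genes were short of 4-fold with normexp correction. Nkiras1, which encodes a Ras-like protein that binds IkB, had 11300 and 13500, a difference of -0.33. The lowest was Commd1, which promotes the removal of RelA from chromatin, at -1.63.

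Of the 6 lists, the target genes had the largest share past 4-fold. Of 37 measured, 11 (29.7%) were at least 4-fold higher and 2 at least 4-fold lower, with a median of 0.56, and with normexp correction 7 were higher and 1 lower. Ier3, an early response gene, had the largest difference, from 47.0 in MHs to 11000 in Sox9+EpCAM- cells, or 7.29 on the log2 scale. Among chemokines, Cxcl1, which attracts neutrophils, had 677 and 22300, a difference of 4.46. Cxcl10, which attracts T cells, had 141 and 4080 by its brightest probe, a difference of 4.27. Ccl2, which attracts monocytes, had 339 and 3248, a difference of 2.68. Cx3cl1 and Cxcl16, chemokines that can be anchored in the membrane, differed by 2.88 and 2.23. The adhesion molecules Icam1 and Vcam1 differed by 2.42 and 3.18, and the other probe of Vcam1 gave 1.47. Lcn2, an iron-sequestering acute phase protein, differed by 3.16, and Cebpd, a transcription factor, by at least 3.12, from 5.63, not well above background. Zc3h12a, named above, is the last of the 11.

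Not all targets were higher. Selp and Sele, adhesion molecules known from endothelium, were lower, by -2.32 and at most -2.53. Sdc4, a heparan sulfate proteoglycan, was level at 16000 and 19100, a difference of -0.33, and Ccl20, Il6, Tnfaip8, Plau and Mmp9 were not well above background on either array. In RefSeq promoter windows, 13 of the 30 target genes in the table (43.3%) held the kB consensus, beside 9.55% of all genes.

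**Figure D5:**
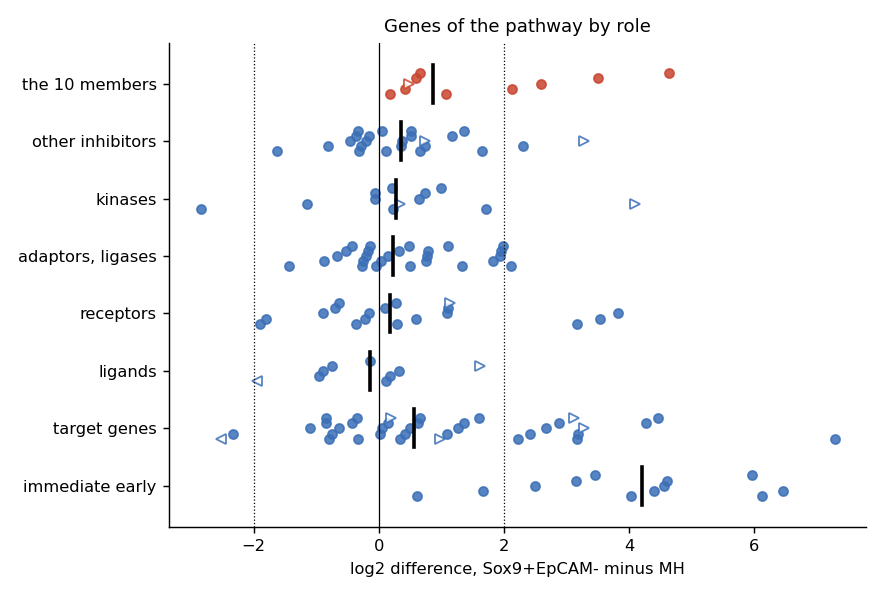
Log2 difference (Sox9+EpCAM- minus MH) of the genes of each list, with triangles for bounds, black bars at the medians and dotted lines at 4-fold. The medians lie between -0.14 for ligands and 0.86 for the 10 genes, apart from the immediate early genes at 4.21; Ikbkb is the kinase at -2.84.

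Other genes moved with these results, and their part in them was not tested. Of 12 immediate early genes, which respond fast to many stimuli including cell handling, 10 were higher by 4-fold or more in Sox9+EpCAM- cells and none lower, with differences from 0.60 for Dusp1 to 6.46 for Fosb and a median of 4.21. Their summed level, relative to the 75th percentile, was 38.9 in MHs and 436 in Sox9+EpCAM- cells, beside the differences of Nfkbie, Nfkbiz, Ier3 and Cxcl1.

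Markers of leukocytes and Kupffer cells, which use NF-kB strongly, were for the most part lower in Sox9+EpCAM- cells. Of 16 measured, 8 were at least 4-fold lower and 1, Cd68, was at least 4-fold higher, with a median of -2.64 and a summed level of 170 in MHs and 92.7 in Sox9+EpCAM- cells. Itgam, whose probe is the brightest of the list, made up most of both sums, which were 46.0 and 16.3 without it. Clec4f, which defines Kupffer cells, differed by -6.43, and Vsig4 was not well above background in Sox9+EpCAM- cells. S100a8 and S100a9 of neutrophils were not well above background on either array. Ptprc, Cd3e and Csf1r differed by -0.24, -0.22 and -0.42, sizes at which the scaling does not settle the sign. Of 8 endothelial markers measured, 6 were at least 4-fold lower and none higher, with a median of -3.05, and their summed level was 9.78 in MHs and 2.21 in Sox9+EpCAM- cells. Selp and Sele moved the same way as these markers.

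Stellate cell and fibroblast markers moved the other way. Of 10 measured, 5 were at least 4-fold higher and 1 lower, with a median of 2.53 and a summed level of 12.4 in MHs and 54.2 in Sox9+EpCAM- cells, or 1.45 and 40.7 without Dcn, the brightest. Col3a1 had the largest difference measured on both arrays, at 6.41, while Lrat, a marker of quiescent stellate cells, was not well above background in Sox9+EpCAM- cells and Pdgfrb on neither array. Of 10 cholangiocyte markers, 2 were at least 4-fold higher, Spp1 at 6.93 and Epcam at 3.73, with a median of 0.31 and a summed level of 5.87 and 52.8, or 5.52 and 10.4 without Spp1. Of 13 hepatocyte markers, 4 were at least 4-fold lower and none higher, with a median of -1.02 and a summed level of 1548 and 690.3. In such bulk samples, fewer cells of a type and less RNA per cell cannot be told apart.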

How the data were processed

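RNA of 2 samples, 1 of MHs and 1 of Sox9+EpCAM- cells, was hybridised to 1-colour Agilent arrays. The authors deposited the spot intensity of Feature Extraction 10.7.3.1, with the background subtracted and no normalization between arrays, its spot error and flags, the mean and background intensity, and a table of ratio values, which are the intensity over the median of the array. The labelling protocol is undisclosed per the labels. The log2 intensity was taken relative to the 75th percentile of its array, and control spots and 276 outlier spots were left out. The probe with the highest mean stood for a gene. A probe not well above background on 1 array entered as a bound, taken against its own signal there or, where that was lower, against the dimmest signal well above background (27.8 for MHs, 18.4 for Sox9+EpCAM- cells). Differences were called by size, at 4-fold. The genes named in the lists are those past 4-fold, the brightest within 1.5-fold and the extremes; the members and lists were chosen with earlier results of these data known. Names are those of the array design, with coordinates on mm9. Alternatives were normexp (limma 3.58.1, R 4.3.3, offset 50), 4 other scalings (the median of measured probes, quantile normalization, the brightest Gapdh probe and the deposited table), the dimmest Gapdh probe, added after the data were seen, 2 other probe choices, outlier spots kept, no bounds, genes measured on both arrays, and 2-fold and 10-fold thresholds. Python 3.11.15 with pandas 2.3.3 was used, and the procedure was tested on simulated data. Probe sequences were used only to look for runs of 20 bases shared between genes, and protein sequences were not used here.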

Additional observations from a re-analysis of the deposited data

How the results depend on the processing

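No fit with the slide, and none without a replicate, could be run. No paired analysis was possible because neither group has more than 1 array. Apart from scaling to the dimmest Gapdh probe, added after seeing the data, 8 of the 10 genes moved by less than 1.5-fold under every alternative run. That scaling gave Nfkb1 -0.35, Nfkb2 1.82, Rel -0.59, Rela 1.37, Relb -0.18, Nfkbia -0.11, Nfkbie 3.88, Nfkbiz 2.75 and Bcl3 0.30, and it left 2 of the 10 genes past 4-fold, with 634 of all genes higher and 3005 lower; among the lists it left 1 negative regulator and 0 adaptors higher, and 1 negative regulator, 1 adaptor, 2 receptors and 1 ligand lower. Relb was at -0.12 with its dimmest probe and Tnfaip3 at 2.52 without the bound, where its MH signal is not well above background. Rela was short of 4-fold with normexp and with the deposited table, which left 3 of the 10 genes past 4-fold, and without the bound 5 were. At 10-fold 2 of the 10 were higher. The median of all measured genes moved by 0.27 with scaling to the brightest Gapdh probe, giving 1650 genes higher and 1006 lower, and by -0.18 with the deposited table, giving 1130 and 1563, so differences near 0 are relative to the scaling. Over all genes, normexp left 612 higher and 660 lower, genes measured on both arrays 758 higher, the 2-fold threshold gave 3319 and 3918 and the 10-fold threshold 363 and 344. The cause was not tested for the counts of the lists that moved. For negative regulators, 0 were higher with normexp, 1 with the median of all probes, 1 among genes measured on both arrays, 5 at 2-fold and 0 at 10-fold, and 1 was lower at 2-fold. For the list of kinases and partners, 2 were higher without the bound, 0 among genes measured on both arrays and 3 at 2-fold. Of the same list, 2 were lower at 2-fold and 0 at 10-fold. For adaptors, 0 were higher with normexp, 2 with quantile normalization, 5 with the brightest Gapdh probe, 2 with the dimmest probe, 0 with the deposited table, 7 at 2-fold and 0 at 10-fold, and 1 was lower with normexp, 1 with the median of all probes, 1 with the dimmest probe and 1 at 2-fold. For receptors, 6 were higher at 2-fold, and 1 was lower with the deposited table and 2 at 2-fold. For ligands, 1 was higher at 2-fold, and 1 was lower with quantile normalization, 1 with the deposited table, 1 without the bound and 1 at 2-fold. For target genes, 7 were higher with normexp and 3 at 10-fold, and 1 was lower with normexp, 1 among genes measured on both arrays and 0 at 10-fold.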
